A study of Rattus norvegicus with 2 samples.

Results

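Transcripts of 8 growth arrest genes of the p53 and GADD45 circuits were followed through the cell types of the meniscus, a fibrocartilage of the rat knee joint. The genes were Cdkn1a, Mdm2, Ccng1, Gadd45a, Gadd45b, Gadd45g, Btg1 and Btg2, found by symbol among 25399 genes in the feature list. Droplet single-cell libraries had been made from tissue labelled aged and from tissue labelled young, 1 library of each. Neither label gives a strain, sex, age in weeks, treatment or number of animals. Both tissues were minced, digested with protease and then with collagenase P, and sorted for viable cells. Animals are not replicated, so no test was made: each difference below is between 2 libraries, and its interval covers counting error only.

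The transcription factor p53 is stabilised by DNA damage and other stress and switches on genes that stop the cell cycle. Among them, Cdkn1a encodes p21, an inhibitor of cyclin-dependent kinases, while Mdm2 encodes the ubiquitin ligase that marks p53 for degradation and Ccng1 encodes cyclin G1, which acts with Mdm2. The GADD45 proteins bind the kinase Map3k4 upstream of p38 and JNK, and also PCNA and Cdk1; Gadd45a is a p53 target, whereas Gadd45b and Gadd45g are better known as early responders to cytokines and TGF-beta. In mouse growth plate, Gadd45b is known from hypertrophic chondrocytes. Btg1 and Btg2 are antiproliferative proteins that bind the CCR4-NOT deadenylase, Btg1 being abundant in resting lymphocytes and Btg2 being both a p53 target and an early response gene.

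Cells were sorted into 7 gates by raw unique molecular identifier (UMI) counts of marker genes: Cd79a for the B lineage, Jchain for plasma cells, S100a8 for neutrophils, Csf1r for monocytes and macrophages, Cd3e for T cells, Dcn or Chad without Ptprc for stromal cells, and Cdh5 for endothelium. After filtering, 6085 aged and 8773 young cells were kept, of which 33.4% and 33.3% fell into a gate. The Cd79a gate held 103 aged and 1195 young cells, the S100a8 gate 832 and 1120, the Csf1r gate 399 and 317, the Cd3e gate 128 and 80, and the stromal gate 529 and 188. The Jchain gate, with 18 and 12 cells, and the Cdh5 gate, with 23 and 10, were described and not compared. Independent markers were counted when found in at least 10% of cells. They were 7 of 8 B lineage markers in aged Cd79a cells and 6 of 7 plasma markers in Jchain cells of both libraries. Neutrophil markers were 7 of 8 in aged and 6 of 8 in young S100a8 cells. All 8 macrophage or monocyte markers passed in Csf1r cells of both libraries. So did 6 of 7 T cell markers in Cd3e cells of both, and 8 of 9 stromal markers in aged stromal cells. Markers of other cell types passed too, among them 3 of 7 plasma markers in Cd79a cells of both libraries. In young Csf1r and stromal cells 5 and 4 of 8 neutrophil markers passed. The libraries shared 18 barcodes. Median depth per stromal cell was 5871 UMIs in aged and 15476 in young, against 10740 and 10860 in the Csf1r gate. Haemoglobin Hbb had a UMI in 24.8% of aged and 6.06% of young kept cells. Free RNA from red cells can reach any droplet, and the part of free RNA in the values below was not tested.

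Levels are in CPM, the counts of a gene scaled to 1000000 UMIs of the gated cells, and paired values give the aged library first. Cdkn1a was lowest in the lymphoid gates. It stood at 6.67 CPM in aged Cd79a cells and 1.10 CPM in young ones, from 7 and 12 UMIs, and at 11.5 and 8.10 CPM in Cd3e cells. It reached 56.0 and 45.1 CPM in the S100a8 gate, 93.7 and 107 CPM in the stromal gate, and 186 and 70.5 CPM in the Csf1r gate. The stromal gate was thus highest in the young library and the Csf1r gate in the aged one, with no overlap of the counting intervals between these neighbours in either library. Only the aged Cd3e and Cd79a levels overlapped in this order.

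Over the compared gates Mdm2 lay within a narrow range and Ccng1 was low in S100a8 cells. Mdm2 spanned 45.4 to 91.3 CPM over the 5 compared gates in the aged library and 45.5 to 96.7 CPM in the young. Ccng1 was at 18.0 and 22.0 CPM in S100a8 cells, and in the other compared gates it lay from 48.7 to 70.0 CPM in aged and from 55.1 to 61.2 CPM in young cells. Every neighbouring pair in those other gates overlapped for Ccng1, so only the low S100a8 level could be placed apart.

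Among the compared gates, Gadd45a led in S100a8 cells and both Gadd45b and Gadd45g in stromal cells. Gadd45a measured 2572 CPM in aged, against 1647 CPM in young S100a8 cells, followed by Csf1r cells at 496 and 275 CPM and stromal cells at 306 and 120 CPM. Gadd45b led in stromal cells with 1072 and 396 CPM, followed by Csf1r cells with 399 and 192 CPM and S100a8 cells with 294 and 134 CPM. Gadd45g also led in stromal cells, with 1831 and 728 CPM, while Csf1r cells held 215 and 22.9 CPM and Cd3e cells 32.9 and 27.0 CPM. The small Cdh5 gate was higher still for Gadd45g in the aged library, at 3385 CPM from 366 UMIs in 23 cells, and at 812 CPM from 55 UMIs in 10 young cells.

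Among the compared gates Btg1 was lowest in stromal cells, where Btg2 was highest. Btg1 stood at 1446 and 1098 CPM in aged and young Cd3e cells, 817 and 1324 CPM in Cd79a cells, 966 and 1069 CPM in S100a8 cells, 660 and 638 CPM in Csf1r cells and 303 and 270 CPM in stromal cells. In the young library the Cd3e and S100a8 levels had overlapping intervals, and the stromal level lay below all other compared gates in both libraries. Btg2 was at 1689 and 1832 CPM in stromal cells and at 1126 and 905 CPM in Cd3e cells. In the myeloid gates Btg2 differed by library, with 968 and 1615 CPM in S100a8 cells and 696 and 1622 CPM in Csf1r cells.

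**Figure D1:**
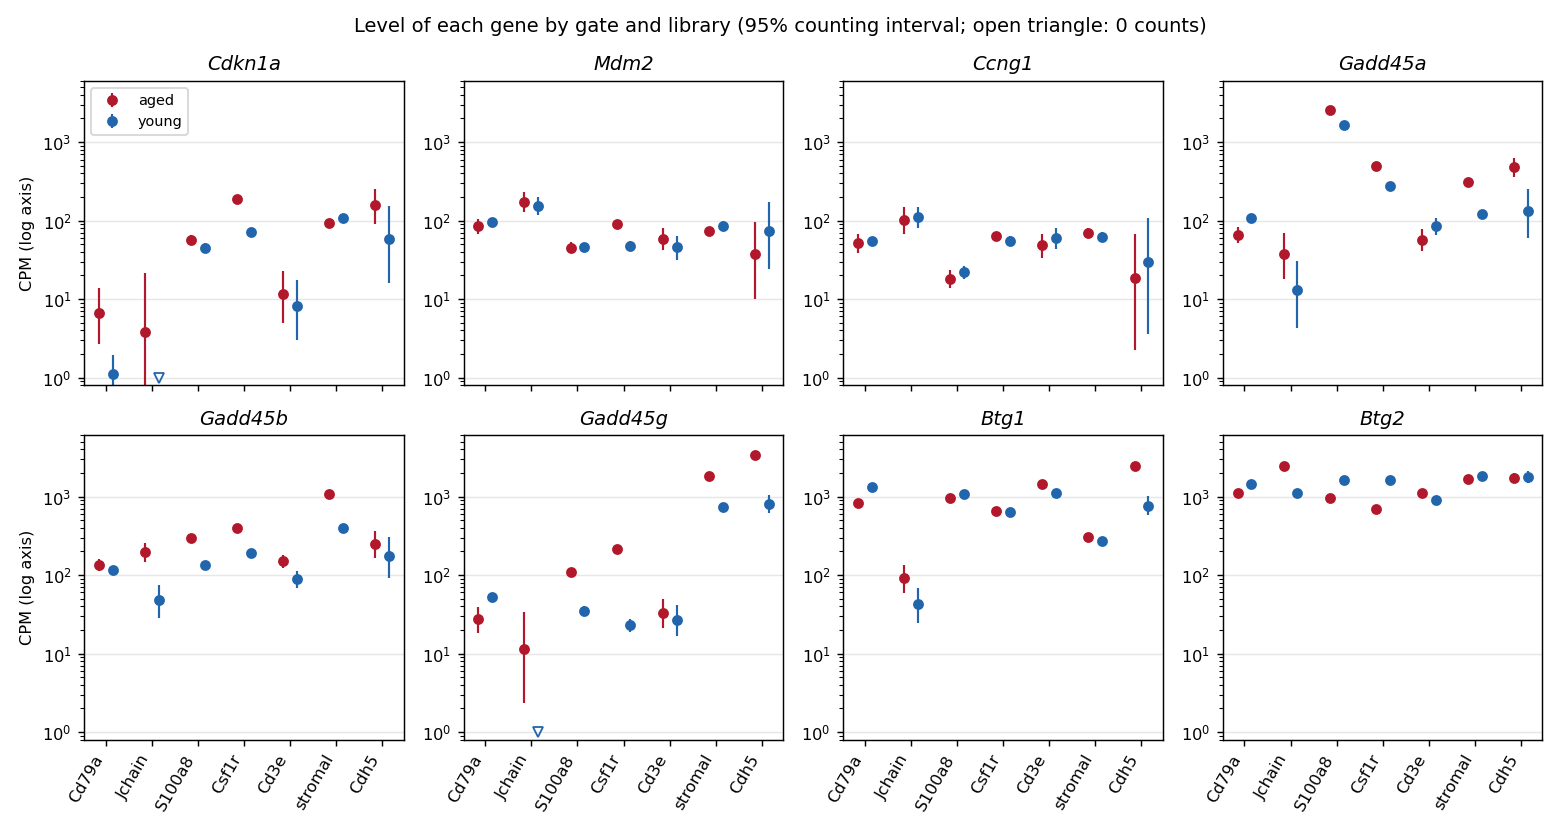
Level of each gene in CPM (log axis) in the 7 marker gates, aged in red and young in blue, 1 library each, with 95% counting intervals; open triangles mark 0 counts. Gadd45a stands highest in the S100a8 gate at 2572 and 1647 CPM, Gadd45b is highest in the stromal gate at 1072 and 396 CPM, and Mdm2 lies between 45.4 and 96.7 CPM in the 5 compared gates of both libraries.

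Aged and young libraries were then compared gate by gate. A gene was counted as apart when its CPM differed at least 1.5-fold and it had at least 20 summed UMIs. In the Csf1r gate 5 of 8 genes were higher in aged and 1 was lower, beside 10.4% of all 9472 measured genes higher and 17.4% lower. In the stromal gate 3 of 8 were higher and none lower, beside 20.3% and 16.5% of 9283 genes. In the S100a8 gate 3 of 8 were higher and 1 lower, beside 9.42% and 26.2%. In the Cd3e gate 1 of 7 was higher, beside 8.05% higher and 34.5% lower, and in the Cd79a gate 3 of 7 were lower, beside 4.05% higher and 46.4% lower. The lower share in the Cd79a gate is close to its background. The median log2 ratio of all genes was -0.54 in the Cd79a gate, -0.24 in S100a8, -0.14 in Csf1r, -0.35 in Cd3e and 0.064 in stromal cells, so a ratio near these values is where a typical gene lay.

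**Figure D2:**
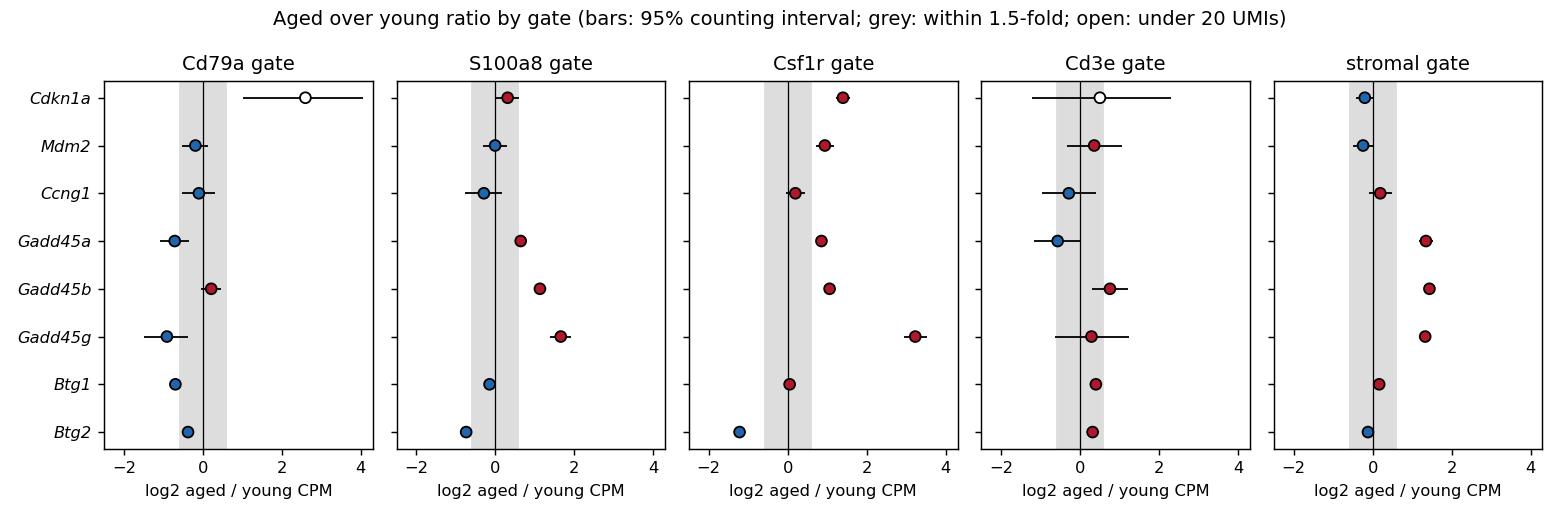
Log2 ratio of aged over young CPM of each gene in the 5 compared gates, with 95% counting intervals; grey marks differences under 1.5-fold and open points rest on under 20 UMIs. Gadd45b and Gadd45g lie right of the grey band in the S100a8, Csf1r and stromal panels, and Btg2 lies left of it in the S100a8 and Csf1r panels.

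Cdkn1a was higher in aged Csf1r cells and not in the pooled stromal gate. In Csf1r cells it measured 186 CPM in aged, against 70.5 CPM in young (log2 ratio 1.40, interval 1.22 to 1.58). Thinned to 1000 UMIs per cell, 15.5% of aged and 6.62% of young Csf1r cells had a Cdkn1a UMI, against 65.7% and 34.7% unthinned at near equal depth. In the lowest compared gate, Cd79a, 3.88% of aged and 0.669% of young cells had a Cdkn1a UMI unthinned, at median depths of 6900 and 5166 UMIs. These were 4 aged and 8 young cells, and whether their UMIs were free RNA was not tested. In stromal cells 93.7 and 107 CPM gave a log2 ratio of -0.20 (-0.43 to 0.031), under 1.5-fold. In S100a8 cells the ratio was 0.31 (0.023 to 0.60), also under 1.5-fold, but it ran from -0.26 with cells thinned to 1000 UMIs to 1.88 with any UMI of S100a8 as the gate. Of 13 alternatives 3 passed 1.5-fold and 2 turned the sign.

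Mdm2, which is both a target of p53 and its negative regulator, was like Cdkn1a higher in aged cells of the Csf1r gate. It measured 91.3 CPM in aged, against 47.6 CPM in young Csf1r cells (0.94, 0.71 to 1.17), and at 2000 UMIs per cell 16.8% of aged and 8.68% of young cells had a UMI. In the stromal gate 73.0 and 86.3 CPM were under 1.5-fold apart, and in the S100a8 gate 45.4 and 45.5 CPM were nearly equal. Ccng1 was under 1.5-fold apart in all 5 compared gates, with log2 ratios from -0.29 to 0.19. In other settings it reached -0.70 in Csf1r, -0.70 in Cd3e and 0.77 in stromal cells, each past 1.5-fold, and its sign turned in at least 1 alternative in every compared gate but the stromal one.

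The Csf1r difference in Cdkn1a and Mdm2 was seen in cells with and without division markers. Among Csf1r cells with a UMI of Mki67 or Top2a, Cdkn1a measured 193 CPM in aged, against 64.4 CPM in young. Among the others it was at 172 and 85.9 CPM, with log2 ratios of 1.59 and 1.00. Mdm2 had a ratio of 0.93 in both subsets. Median depth was 19827 and 18451 UMIs in cells with these markers and 6404.5 and 6005.5 in cells without. The split thus also followed depth. Split instead by the macrophage complement gene C1qa, Cdkn1a was at 61.0 and 30.3 CPM in C1qa cells (12 young UMIs in 31 cells) and at 204 and 74.4 CPM in cells without C1qa. Aged cells were thus higher in both C1qa subsets, and cells without C1qa were higher in both libraries. The neutrophil list made up 0.0756% of UMIs in aged and 0.211% in young Csf1r cells, with none of its 8 genes at 0; its part in these values was not tested.

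The pooled stromal value of Cdkn1a combined subsets that pointed in opposite directions. Cells with at least 3 UMIs of Chad, which encodes the cartilage matrix protein chondroadherin, were 41 of the aged stromal cells (7.75%) and 115 of the young (61.2%). The limit was not adjusted for depth, and median depth per stromal cell was 5871 UMIs in aged and 15476 in young. In these Chad cells Cdkn1a measured 262 CPM in aged, against 102 CPM in young (1.36, 0.96 to 1.76). In the cells gated by Dcn alone, the gene of the proteoglycan decorin, it was at 77.0 and 115 CPM (-0.58, -0.89 to -0.28). With 2000 UMIs per cell, 29.3% of aged and 9.57% of young Chad cells had a Cdkn1a UMI, against 9.39% and 19.2% of Dcn-only cells. The intervals of these ratios do not overlap, but the second difference is just under 1.5-fold.

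The Mdm2 value also depended on pooling. It was at 63.4 and 30.8 CPM in Dcn-only cells (1.04, 0.55 to 1.57), while the pooled ratio was -0.24. In Chad cells 169 and 128 CPM, from 51 and 221 UMIs, gave 0.40 with an interval of -0.072 to 0.84 that includes no difference. Chad cells had more Mdm2 than Dcn-only cells in each library, by 1.41 on the log2 scale in aged and 2.06 in young, and they were a much larger share of the young gate. Ccng1 was lower in Chad cells than in Dcn-only cells of the young library, at 37.1 and 93.0 CPM; in the aged library 46.4 and 72.3 CPM had overlapping intervals.

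The promoters of Gadd45a and Gadd45g are shown because these genes were at least 1.5-fold higher in aged cells of 3 gates and lower in the Cd79a gate, and because both windows hold an octamer that few promoters hold. Each line gives the 250 bases before the RefSeq start in the GRCr8 assembly, 5′ to 3′ on the strand of the gene, with motif matches in capitals. Gadd45a lies on the minus strand at chr4:97486800-97487049 and Gadd45g on the minus strand at chr17:13530352-13530601.
Gadd45a: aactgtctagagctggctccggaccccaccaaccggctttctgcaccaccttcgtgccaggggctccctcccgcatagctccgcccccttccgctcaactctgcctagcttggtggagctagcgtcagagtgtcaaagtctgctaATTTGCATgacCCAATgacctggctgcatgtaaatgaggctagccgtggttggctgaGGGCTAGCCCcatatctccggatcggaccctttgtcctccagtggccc
Gadd45g: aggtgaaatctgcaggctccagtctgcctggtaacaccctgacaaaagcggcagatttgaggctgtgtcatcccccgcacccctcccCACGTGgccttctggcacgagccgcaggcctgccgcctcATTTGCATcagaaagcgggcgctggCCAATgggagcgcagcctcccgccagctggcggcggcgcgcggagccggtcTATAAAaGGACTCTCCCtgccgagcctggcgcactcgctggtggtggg
Motifs were searched on both strands: the octamer ATTTGCAT, the CCAAT box CCAAT, the TATA box TATAAA, the E-box CACGTG, the NF-kB pattern (GGGA and CC with any 4 bases between), the AP-1 site TGANTCA, the cAMP response element TGACGTCA and the p53 half-site. The octamer was in 1.56% of 33469 rat promoters of this length and in 2 of the 8 genes, Gadd45a from 105 and Gadd45g from 124 bases before the start. Gadd45a also held a CCAAT box, found in 34.0% of promoters, and a p53 half-site, found in 6.64%. Gadd45g held a CCAAT box, an E-box (5.59% of promoters), a TATA box (12.9%) and an NF-kB pattern (16.4%). The AP-1 site, in 6.34% of promoters, was in none of the 8 windows, and no marked matches overlap within a printed window. These are letter matches in a short window and say nothing of binding.

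Gadd45a was at least 1.5-fold higher in aged cells of 3 gates and lower in 1. In stromal cells 306 and 120 CPM gave a log2 ratio of 1.35 (1.18 to 1.53), and at 1000 UMIs per cell 18.7% of aged and 8.51% of young cells had a UMI. In the S100a8 gate, where it was most abundant, 2572 and 1647 CPM gave 0.64 (0.60 to 0.69), with a UMI in 82.6% and 76.7% of thinned cells. In the Csf1r gate 496 and 275 CPM gave 0.85 (0.76 to 0.95), while the thinned shares were 28.1% and 27.1%. The Csf1r difference was thus in UMIs and hardly in the share of cells, and with each cell weighted equally, as the mean of per-cell CPM, the ratio was 0.14. The S100a8 ratio fell under 1.5-fold in 4 of 13 alternative settings. In the Cd79a gate 65.7 and 108 CPM gave -0.71 (-1.08 to -0.36), near the median of all genes there.

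Within the Csf1r gate the Gadd45a difference lay in the cells with division markers. Cells with Mki67 or Top2a had 560 CPM in aged and 223 CPM in young (1.33), while cells without had 377 and 405 CPM (-0.10). C1qa cells had 128 and 47.9 CPM and cells without C1qa 549 and 296 CPM. Camp and Ltf are genes of granule proteins made in maturing neutrophils. Within the S100a8 gate, cells with Camp or Ltf and no Cxcr2 UMI had 2429 and 1520 CPM (0.68). Ltf had only 0 aged and 3 young UMIs in the gate, so Camp set this subset. Cells with the chemokine receptor Cxcr2 had 3118 and 2029 CPM (0.62). The S100a8 difference was therefore of like size in both of these subsets, and Cxcr2 cells were the higher subset in each library. It was not even by division markers. S100a8 cells with them had 1026 and 848 CPM (0.28), under 1.5-fold, and those without had 3162 and 1995 CPM (0.66).

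Gadd45b was higher in aged cells of 4 of the 5 compared gates. In stromal cells 1072 and 396 CPM gave 1.44 (1.34 to 1.53), in S100a8 cells 294 and 134 CPM gave 1.13 (0.99 to 1.27), in Csf1r cells 399 and 192 CPM gave 1.06 (0.95 to 1.17), and in Cd3e cells 150 and 89.1 CPM gave 0.75 (0.30 to 1.22). By the mean of per-cell CPM the Csf1r ratio was 0.48, under 1.5-fold. In the Cd79a gate 135 and 117 CPM were under 1.5-fold apart. The Cd3e value rested on 105 and 66 UMIs, 39.0% and 39.4% of them in 3 cells, and fell to 0.093 without the top 8% of doublet scores.

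Both stromal subsets shared the Gadd45b difference at almost the same size. Chad cells had 3003 CPM in aged and 569 CPM in young (2.40, 2.27 to 2.53), and Dcn-only cells had 880 and 166 CPM (2.41, 2.20 to 2.61). The pooled ratio was lower than either, since Chad cells, 1.77 higher than Dcn-only cells on the log2 scale in aged and 1.78 in young, were the smaller part of the aged gate. Pooled, 34.8% of aged and 31.9% of young stromal cells had a Gadd45b UMI at 1000 UMIs per cell. The UMIs were more concentrated in the aged library, where the top 5% of cells held 39.3% of them, against 25.0% in young.

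In the Csf1r gate Gadd45b differed most among cells with division markers. Cells with Mki67 or Top2a had 291 CPM in aged and 80.0 CPM in young (1.86), and cells without had 604 and 472 CPM (0.36). Cells without these markers were the higher subset in each library. Among S100a8 cells the Camp or Ltf subset had 177 and 75.0 CPM (1.24) and the Cxcr2 subset 322 and 244 CPM (0.40).

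Gadd45g was at least 1.5-fold higher in aged stromal, S100a8 and Csf1r cells. Stromal cells had 1831 and 728 CPM (1.33, 1.26 to 1.40), and S100a8 cells had 111 and 35.0 CPM (1.66, 1.39 to 1.93). Csf1r cells had 215 and 22.9 CPM (3.23, 2.94 to 3.53). In that gate 1 aged cell held 479 of 1222 UMIs and 3 cells held 751, and without the 3 top cells of each library the ratio was 2.16. In the share of Csf1r cells with a UMI, which no single cell can carry, the values at 2000 UMIs were 11.4% in aged (8.45 to 15) and 1.61% in young (0.524 to 3.71). The S100a8 values were 8.54% and 3.28%. Subsets of these gates differed in their ratios. Csf1r cells with C1qa had 118 and 80.7 CPM (0.54, -0.061 to 1.18), under 1.5-fold, and those without had 229 and 17.5 CPM (3.71, 3.37 to 4.07). Csf1r cells had a ratio of 2.03 with division markers and 3.82 without. The 3 top cells were not left out of these subset ratios. The third of them held 87 UMIs, and all aged C1qa cells held 83, so all 3 were cells without C1qa. Aged cells with division markers held 283 UMIs and those without 939, so the cell with 479 was among those without. How far these few cells set the subset differences was not tested. S100a8 cells with division markers had 236 and 23.9 CPM (3.30), and those without had 62.7 and 39.9 CPM (0.65). The Cd79a gate went the other way with 27.6 and 51.9 CPM (-0.91, -1.50 to -0.37), from 29 aged UMIs. The median of all genes there, -0.54, lay inside this interval.

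Stromal subsets differed in Gadd45g as well as in its size of change. Chad cells had 2970 CPM in aged and 558 CPM in young (2.41), and Dcn-only cells had 1717 and 953 CPM (0.85). Chad cells were the higher subset in aged and the lower one in young. With 2000 UMIs per cell, 73.2% of aged and 44.3% of young Chad cells had a UMI, against 50.4% and 65.8% of Dcn-only cells. In Dcn-only cells the share and the CPM thus went in opposite directions, and the top 5% of aged Dcn-only cells held 48.5% of the Gadd45g UMIs, against 27.3% in young.

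Counting the subsets separately, 4 of 8 genes were at least 1.5-fold higher in aged Chad cells and none lower, beside 18.9% and 32.1% of all 6210 genes measured there. In Dcn-only cells 6 of 8 were higher and none lower, beside 17.5% and 17.2% of 8492 genes. The genes higher in both subsets were Gadd45a, Gadd45b and Gadd45g; Cdkn1a was added in Chad cells, and Mdm2, Btg1 and Btg2 in Dcn-only cells. Aged Chad cells were few, and Ccng1 there rested on 14 UMIs.

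**Figure D3:**
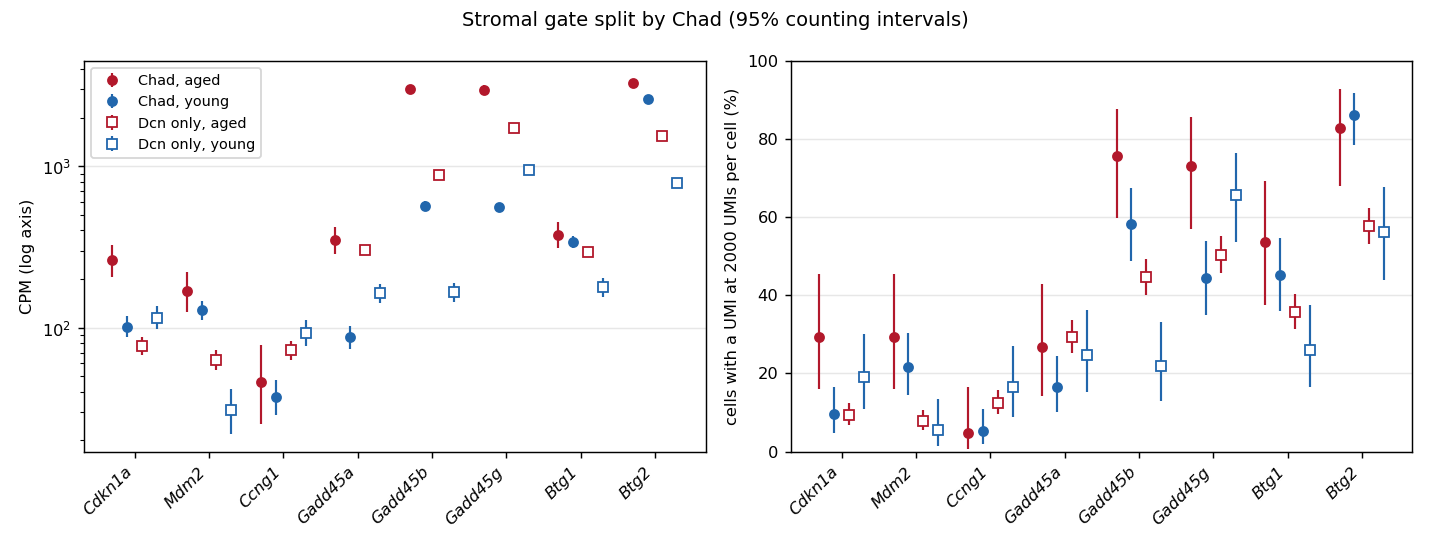
The stromal gate split into cells with Chad (filled circles) and cells with Dcn only (open squares), aged in red and young in blue, with 95% counting intervals; left, CPM on a log axis, right, percent of cells with a UMI at 2000 UMIs per cell. Gadd45b is higher in aged in both subsets (3003 against 569 and 880 against 166 CPM), while Cdkn1a is higher in aged Chad cells and lower in aged Dcn-only cells.

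The immediate early and stress list, which marks among other things the response of cells to tissue digestion, was counted in the pooled stromal gate. Of its 16 genes, 10 were at least 1.5-fold higher and 1 lower, beside 20.3% and 16.5% of all genes, with a median log2 ratio of 0.67 beside 0.064 for all genes. The 4 largest were Nfkbia, the NF-kB inhibitor (1941 and 184 CPM, 3.40), Ier3 (3031 and 374 CPM, 3.02), the heat shock gene Hspa1b (976 and 240 CPM, 2.02) and the mRNA decay factor Zfp36 (1488 and 403 CPM, 1.88). Members of the AP-1 family differed: Fosb was lower (1340 and 2699 CPM, -1.01), and Fos, Jun and Jund had ratios of -0.19, -0.15 and -0.43, under 1.5-fold, while Junb was higher at 0.72. In Csf1r cells 4 of 16 were higher and 2 lower, beside 10.4% and 17.4%, with a median of -0.051. This list and the other lists below were not split by Chad, though Chad cells were 7.75% of aged and 61.2% of young stromal cells. The part of the immediate early list in the values of the 8 genes was not tested.

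Btg2 is shown with its promoter because it was the member lower in aged myeloid cells. The window lies on the minus strand at GRCr8 chr13:48087691-48087940, from RefSeq, with matches in capitals.
Btg2: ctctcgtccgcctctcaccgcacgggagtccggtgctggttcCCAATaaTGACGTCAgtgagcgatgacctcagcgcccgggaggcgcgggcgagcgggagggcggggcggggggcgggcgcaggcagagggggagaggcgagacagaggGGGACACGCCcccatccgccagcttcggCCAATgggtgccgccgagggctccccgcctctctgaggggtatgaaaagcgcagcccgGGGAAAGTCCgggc
It held a cAMP response element, found in 1.59% of promoters and in no other of the 8 windows, 201 bases before the start, together with 2 CCAAT boxes and 2 NF-kB patterns.

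In Csf1r cells Btg2 measured 696 CPM in aged, against 1622 CPM in young (-1.22, -1.28 to -1.16). At 1000 UMIs per cell 39.6% of aged and 71.9% of young cells had a UMI, so the UMIs and the share of cells went the same way. In S100a8 cells 968 and 1615 CPM gave -0.74 (-0.80 to -0.68), with 54.4% and 67.1% of thinned cells, and this ratio too fell under 1.5-fold in 4 of 13 settings. Csf1r cells with and without division markers shared the difference, at 401 and 1094 CPM (-1.45) and at 1253 and 2947 CPM (-1.23). C1qa cells had 625 and 815 CPM (-0.38), under 1.5-fold, and cells without C1qa had 707 and 1698 CPM (-1.27).

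In stromal cells Btg2 was at 1689 and 1832 CPM, under 1.5-fold apart. Here too pooling mattered: Chad cells had 3271 and 2622 CPM (0.32), under 1.5-fold, and Dcn-only cells 1532 and 786 CPM (0.96). Aged CPM was thus higher in each subset. The pooled share of cells with a Btg2 UMI was lower in aged. It was 51.0% of aged and 60.1% of young cells at 1000 UMIs per cell, and 59.9% and 74.5% at 2000. Btg1 was at 303 and 270 CPM in the pooled gate and at 295 and 178 CPM in Dcn-only cells (0.73, 0.52 to 0.95). Btg1 in Csf1r cells stood at 660 and 638 CPM and in S100a8 cells at 966 and 1069 CPM, both under 1.5-fold apart.

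The Cd79a gate differed in its composition. Btg1 was at 817 and 1324 CPM (-0.70, -0.80 to -0.60). In cells with Mki67 or Top2a it was at 996 and 921 CPM (0.11), where the median of all genes was -0.086. In the other cells it was at 554 and 2586 CPM (-2.22), where the median of all genes was -1.65. In the young library Btg1 was 1.49 lower on the log2 scale in cells with division markers than in those without, and Btg2 1.38 lower.

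**Figure D4:**
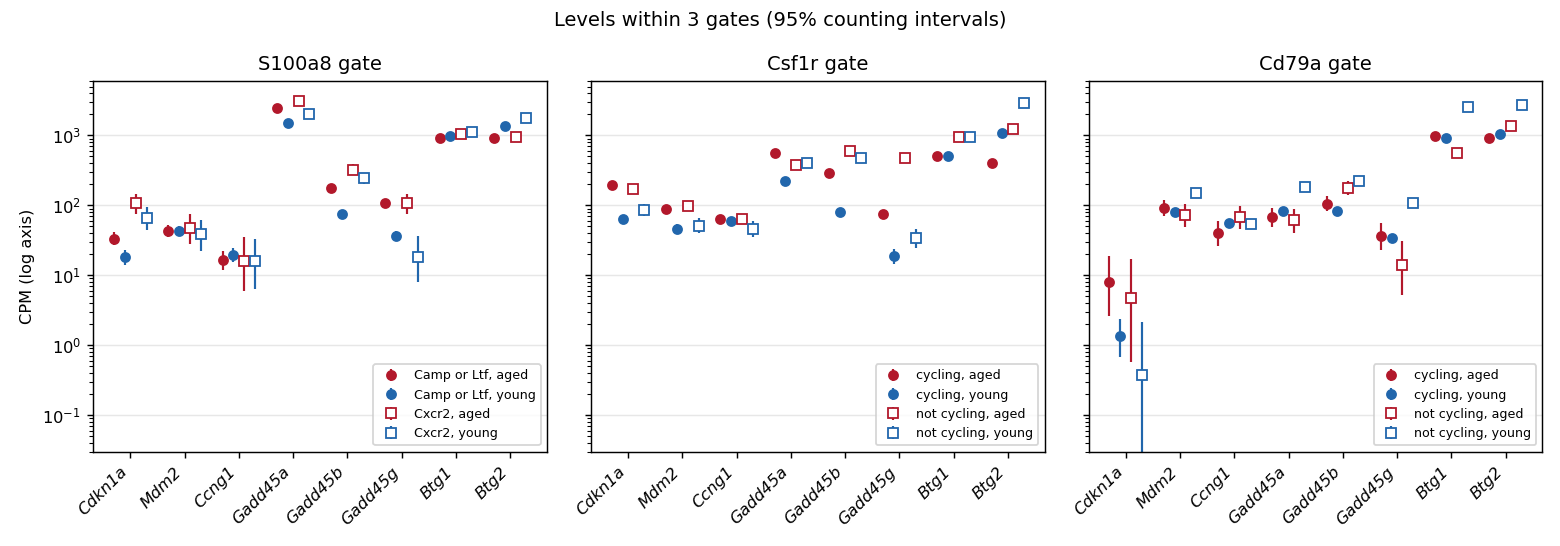
CPM (log axis) of the 8 genes within the S100a8, Csf1r and Cd79a gates, each split in 2 subsets (filled circles and open squares), aged in red and young in blue, with 95% counting intervals. In the Csf1r panel Btg2 is lower in aged in both subsets, and in the Cd79a panel Btg1 is at 554 and 2586 CPM in cells without division markers and at 996 and 921 CPM in cells with them.

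The plasma cell gene Mzb1 measured 835 CPM in aged, against 247 CPM in young Cd79a cells, and the plasma list, with 1 of its 7 genes at 0 in each library, made up 0.12% and 0.0396% of their UMIs. The Jchain limit of 0.2% of UMIs also missed most plasma cells, since 426 aged and 36 young kept cells had at least 20 Mzb1 UMIs and 17 and 11 of these were in the Jchain gate. With a limit of 3 Jchain UMIs, chosen after seeing the data, the Jchain gate held 396 and 58 cells. The Cd79a ratios were then -0.35 for Gadd45a, -0.52 for Gadd45g and -0.11 for Btg1, so all 3 lower values fell under 1.5-fold once these cells were moved out.

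In this wider Jchain gate Btg2 measured 1194 CPM in aged, against 624 CPM in young (0.94, 0.85 to 1.02), and Gadd45b at 131 and 61.5 CPM (1.09, 0.82 to 1.37). Btg1 was at 56.3 and 164 CPM (-1.54, -1.75 to -1.34) and Ccng1 at 71.4 and 110 CPM (-0.63, -0.85 to -0.40), while Mdm2 at 140 and 94.4 CPM was just under 1.5-fold. Cdkn1a was at 6.58 and 1.03 CPM (2.68, 0.77 to 5.76), from 63 aged and 2 young UMIs. The young cells also held Igll1, a B cell precursor gene, at 335 CPM against 7.62 in aged, and Mki67 at 578 against 20.3 CPM, so the gate did not hold the same cells in both libraries.

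In the narrow Jchain gate Btg2 stood at 2414 and 1111 CPM, Mdm2 at 175 and 153 CPM, and Btg1 at 91.2 and 42.2 CPM, from 18 and 12 cells. The Cdh5 gate carried all 7 endothelial markers in both libraries. There Btg1 was at 2423 and 768 CPM, Btg2 at 1748 and 1772 CPM, Gadd45a at 481 and 133 CPM, and Cdkn1a at 157 and 59.1 CPM, from 17 and 4 UMIs.

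Other p53 targets were counted from a list of 22 genes present in the files. In Csf1r cells 4 of 17 measured targets were at least 1.5-fold higher in aged and none lower, beside 10.4% and 17.4% of all genes, with a median of 0.18 beside -0.14 for all genes. They were Sesn2, a sestrin that restrains mTORC1 (44.0 and 7.86 CPM, 2.48), the stress cytokine Gdf15 (36.1 and 11.4 CPM, 1.67), Tp53inp1 (18 and 6 UMIs, 1.27, -0.12 to 2.89) and the polo-like kinase Plk3 (17.2 and 9.17 CPM, 0.91). Bax, the apoptosis effector, was at 140 and 149 CPM and Rps27l at 445 and 445 CPM in the same cells. The other 13 were under 1.5-fold apart.

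In the pooled stromal gate 6 of 14 measured targets were higher and none lower, beside 20.3% and 16.5%. Their median was 0.51 beside 0.064. The 4 largest were Gdf15 (9.01 and 1.65 CPM, 2.45), Plk3 (70.6 and 29.8 CPM, 1.25), Fdxr, a mitochondrial ferredoxin reductase (11.7 and 4.96 CPM, 1.24), and Pmaip1, which encodes the apoptosis inducer Noxa (16 and 7 UMIs, 1.05, -0.31 to 2.58). Gdf15 rested there on 30 aged and 5 young UMIs. The other higher genes were Aen (0.82, -0.013 to 1.70) and Fas (0.78, -0.086 to 1.69). The intervals of Tp53inp1 in Csf1r cells and of Pmaip1, Aen and Fas in stromal cells include no difference. In the Cd79a gate 3 of 17 were higher and 8 lower, beside 4.05% and 46.4%, and the median of -0.57 was close to the -0.54 of all genes. In S100a8 cells 3 of 13 were higher and 5 lower, beside 9.42% and 26.2%, with a median of -0.068. In Cd3e cells 0 of 6 were higher and 1 lower, beside 8.05% and 34.5%, with a median of -0.17.

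Genes of the wider machinery were counted in the same way. Beside them stand 10.4% of all genes higher and 17.4% lower in Csf1r cells, and 20.3% and 16.5% in stromal cells. Lists this short cannot be told apart from such shares. Of the genes for p53 and its regulators, none of 8 measured in Csf1r cells and none of 6 in stromal cells was higher. Their medians were -0.27 beside -0.14 for all genes, and 0.25 beside 0.064. The kinase gene Atm was lower in Csf1r cells (19.5 and 38.9 CPM, -0.99). Of the GADD45 partners, none of 6 measured in Csf1r cells and none of 5 in stromal cells was 1.5-fold apart, with medians of -0.19 and 0.13. Map3k4 itself was at 15.8 and 19.4 CPM and at 15 and 12.9 CPM. Of 5 measured BTG and TOB relatives, 0 were higher and 2 lower in stromal cells, and 1 was higher and 0 lower in Csf1r cells. Btg3 was lower in aged stromal cells (25.2 and 54.2 CPM, -1.10), as was the deadenylase gene Cnot7 (16.5 and 35.4 CPM, -1.10). In aged Csf1r cells Btg3 was higher (20.8 and 11.4 CPM, 0.87). The p21 target list holds cyclins, their kinases and Pcna. Of its 10 genes 1 was higher and 4 lower in Csf1r cells, beside 10.4% and 17.4% of all genes, with a median of -0.34. The higher one was the cyclin gene Ccnd2 (9.68 and 5.24 CPM, 0.88), and the lower ones included Ccnd3 (103 and 176 CPM, -0.77). In stromal cells 0 of 7 were higher and 2 lower, beside 20.3% and 16.5%, with a median of -0.075.

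Within single stromal cells thinned to 2000 UMIs, the median number of the 8 genes with a UMI was 3 in both libraries. Gadd45b was found in 68.9% of 299 aged cells with Btg2 and in 15% of 200 cells without, and in the young library in 54.3% of 140 and 14.6% of 48 cells. Cdkn1a was found in 18.8% of 48 aged cells with Mdm2 and in 10.2% of 451 without, and in the young library in 13.8% of 29 and 13.2% of 159 cells. In Csf1r cells Cdkn1a was found in 28.8% of 66 aged cells with Mdm2 and in 29.6% of 328 without. The young shares were 18.5% of 27 and 9.51% of 284 cells. By Gadd45a, Cdkn1a was found in 39.9% of aged Csf1r cells with it and 22.1% without. In young Csf1r cells these shares were 10.0% and 10.5%. Cells of 1 library are not replicates, and subsets of a gate differ in these genes, so the shares describe how the transcripts were distributed.

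Over the 14 profiles of gate by library, likeness was measured by Pearson's r of log2(CPM + 10) among 5098 genes. The profiles share 2 libraries and differ greatly in cell number, so these values are descriptions. Among the 8 genes the highest r was 0.79, for Mdm2 and Ccng1. Next came 0.77 for Cdkn1a and Gadd45g and 0.74 for Cdkn1a and Gadd45b. The lowest was -0.81, for Mdm2 and Btg1, and Cdkn1a and Mdm2 had -0.48. The most alike genes were Rin2 and Ltbr for Cdkn1a (0.95 and 0.93), Hm13 and Creld2 for Mdm2 (both 0.87), Mxi1 and Lamtor4 for Gadd45a (0.96 and 0.95), Csf1 and Fth1 for Gadd45b (0.90 and 0.87), Ifitm3 and Rhoc for Gadd45g (0.95 and 0.94), and Pdcd10 and Sft2d1 for Btg1 (0.97 and 0.95). Btg2 had weaker matches than these, with Jund at 0.68 and Tspan6 at 0.63.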

How the data were processed

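The authors deposited raw UMI counts of each gene in each barcode. Cell Ranger 6.1.1 is named in the submitters' processing notes, and the build used for counting is not given in the sources used here. Totals were 47228750 UMIs in 8422 aged and 65051972 UMIs in 9914 young barcodes. Kept cells had 500 or more genes and no more than 20% of UMIs from 13 mitochondrial genes. Gates needed at least 2 UMIs of Cd79a, Csf1r, Cd3e or Cdh5, 3 UMIs of Dcn or Chad with Ptprc at 0, Jchain at 0.2% of UMIs, or S100a8 at 0.5% of UMIs with Csf1r at 0. Cells meeting 2 gates, 34 aged and 40 young, were left out. Scrublet called 0 doublets in either library, which is no working call, so doublets otherwise remained.

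Counts were summed per library and gate and scaled to CPM. Ratios carry exact conditional binomial 95% intervals and shares Clopper-Pearson intervals, which cover counting error only. Gates with at least 20 cells in both libraries were compared, and no p-value was made from cells. Shares were taken after thinning cells to 1000 or 2000 UMIs. Up to 4 genes per list and gate were named by size of ratio, and 2 genes alike per member, those for Ccng1 not being reported here. Bax, Rps27l, Aen, Fas, Fos, Fosb, Jun, Junb, Jund, Mzb1, Igll1, Mki67 and Hbb were chosen after their values were seen. The 8 genes and all lists were chosen with earlier results of these data known. In simulated counts at the stromal totals, 95.8% of intervals of 9083 unchanged genes held the truth, and 100 genes changed 2-fold gave a median log2 ratio of 0.98. This checks the interval formula at gate totals only. It cannot show how the intervals hold where a few cells carry many of the UMIs. Promoters are RefSeq's for GRCr8; all 8 genes matched by symbol. Computation used Python 3.11.15, scipy 1.17.1, scanpy 1.11.5, edgeR 4.0.16 and DESeq2 1.42.0.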

Additional observations from a re-analysis of the deposited data

Results flagged for a closer look

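For 2 genes the aged over young difference pointed in opposite directions between gates of the same pair of libraries. Gadd45a had log2 ratios of -0.71 in the Cd79a gate, 0.64 in the S100a8 gate, 0.85 in the Csf1r gate and 1.35 in the stromal gate. Gadd45g had -0.91 in the Cd79a gate, 1.66 in S100a8, 3.23 in Csf1r and 1.33 in stromal cells. The difference between gates was not tested, since each library is 1 sample. Both Cd79a values fell under 1.5-fold with the wider Jchain gate. The median of all genes in the Cd79a gate was -0.54, and 46.4% of them were at least 1.5-fold lower in aged. In Cd79a cells with division markers the ratios were -0.27 for Gadd45a and 0.13 for Gadd45g. In those without they were -1.60 and -2.95, where the median of all genes was -1.65.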

How the results depend on the processing

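No paired analysis was possible because there is 1 library per age and the labels give no shared replicate. Of 17 ratios at least 1.5-fold apart among 38, 9 stayed past 1.5-fold in every alternative run and 0 changed sign. Against total UMIs, TMM scaling moved all ratios of a gate by 0.49 in Cd79a, 0.21 in S100a8, 0.14 in Csf1r, 0.35 in Cd3e and -0.063 in stromal cells. The Cd79a count of 3 became 0 with Jchain at 3 UMIs, with per-cell means and at 1000 UMIs per cell, and 1 (higher in aged) with TMM or DESeq2 factors. The Cd3e count of 1 became 4 with any marker UMI, 5 with TMM or DESeq2 factors, 2 without abundant gene families or with per-cell means, 3 at 1000 UMIs or without the 3 top cells, and 0 without the top 8% of doublet scores. The stromal count of 3 became 5 at 1000 UMIs, with 4 higher and 1 lower. For the scaling settings the common shift sets these counts; for the others the cause was not tested. In the Csf1r gate Gadd45a and Gadd45b were 0.14 and 0.48 by per-cell means, and 0.19 and 0.31 at 1000 UMIs. At 2000 in place of 1000 UMIs, 56 of 80 shares left their interval, as deeper thinning finds more cells. Doubled minimums left 1 aged Cd79a cell and no value. The wider Jchain gate, cells over 5000 UMIs and leaving out top cells were chosen after seeing the data.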
